A study of Mus musculus with 4 samples.

Results

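The E2F transcription factors and the retinoblastoma pocket proteins form the switch that admits a cell to DNA synthesis. Their transcripts were followed in FGSCs, a cultured line of female germline stem cells from mouse ovary, which expressed a hairpin directed at Gm26917, a long non-coding RNA (shGm26917), or a control hairpin (shNC). The 10 members were E2f1, E2f2, E2f3, E2f4, E2f6, E2f7, E2f8, Rb1, Rbl1 and Rbl2, taken by gene name from a table of 12701 genes. Each group held 2 RNA sequencing libraries, 4 in all, and per the study both hairpins were delivered by lentivirus. The study kept its mice on a C57BL/6J background and speaks of biological replicates in its sequencing of Gm26917 knockdown cells. The sources used here do not give the age of the mice behind the line or say if libraries of 1 group were grown as separate cultures, and the p-values cover the spread between these libraries only.

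Activator E2Fs (E2F1, E2F2, E2F3) bind a DP partner and turn on genes of DNA replication, and the pocket proteins RB1, p107 (Rbl1) and p130 (Rbl2) silence them by binding their activation domain. E2F4 is the main partner of p107 and p130 in resting cells, where it joins the MuvB proteins in the repressive DREAM complex. E2F6 represses without pocket proteins, through a Polycomb complex, and E2F7 and E2F8 are atypical factors that bind DNA without DP and repress E2F targets late in S phase. Cyclin-dependent kinases (CDKs) phosphorylate the pocket proteins and release the E2Fs.

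In shGm26917 FGSCs, E2f6 and E2f4 were higher and E2f1 was lower, and the other 7 members did not pass the test. E2f6 rose 1.34-fold, E2f4 rose 1.18-fold, and E2f1 fell to 0.804 of its shNC mean. Thus 3 of 10 members were called (30%), beside 23.1% of all genes, with higher calls made for 11.6% and lower calls for 11.5% of all genes. A call is an adjusted p under 0.05 in limma, a linear model with pooled variance, on log2(CPM + 0.5), adjusted over all genes. CPM are reads of a gene scaled to a common library size. The shNC and shGm26917 libraries did not overlap for 7 of the 10 members, beside 64.2% of all genes, so that separation by itself was common in these data. The median log2 fold change of the members was 0.11, and that of all genes was -0.01. The calls of E2f1, E2f4 and E2f6 each ended when at least 1 library was left out, as given with each gene.

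**Figure D1:**
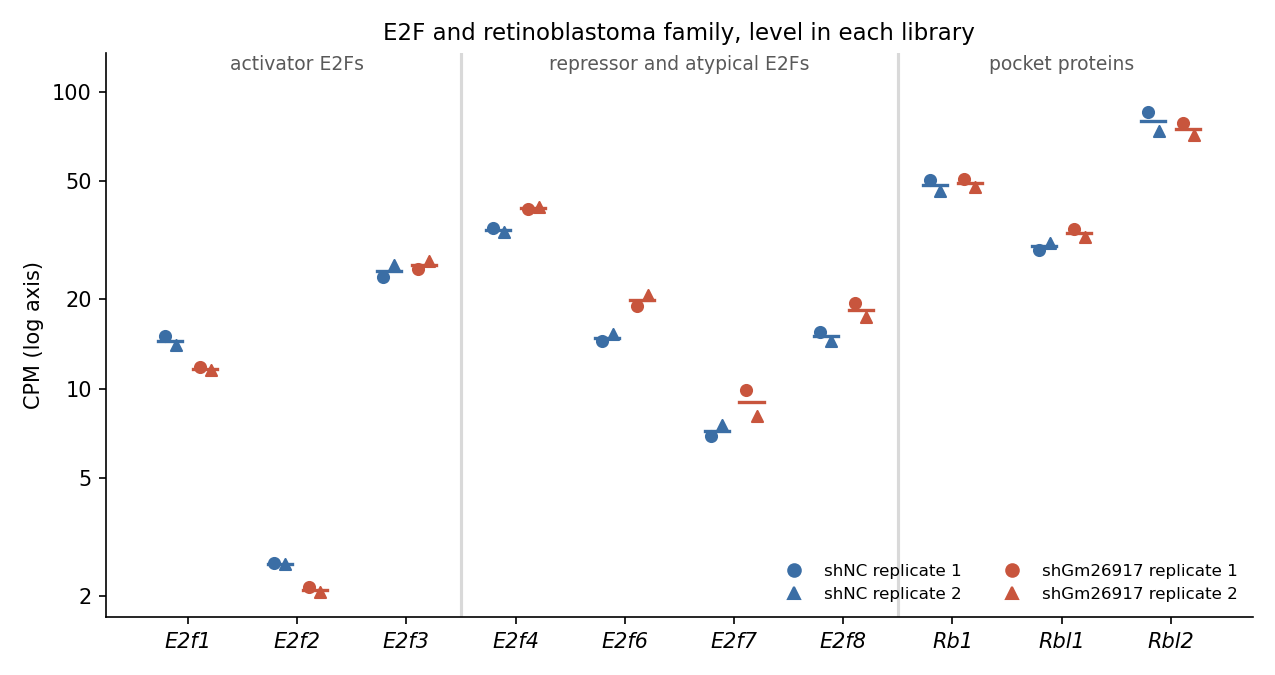
CPM (log axis) of the 10 members in each library, with shNC in blue, shGm26917 in red, circles for replicate 1, triangles for replicate 2 and bars for group means. E2f1 and E2f2 sat lower in both shGm26917 libraries, E2f4, E2f6, E2f7, E2f8 and Rbl1 sat higher, and E2f3, Rb1 and Rbl2 overlapped.

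Sequences near the start sites of the members are shown because several members are known targets of E2F itself. The letters TTTCCCGC, TTTCGCGC, TTTGCCGC and TTTGGCGC were searched on both strands in RefSeq promoter windows (GRCm38.p6) from 250 bases before to 50 bases after each start site. Windows were matched for 8 of the 10 members. Of these, E2f2, E2f3, E2f7 and Rbl1 held a match, as did 2.26% of all 32851 windows. Each is printed on the strand of its gene with the match in capitals, and a match is a description of these letters only.
E2f2, chr4:136172294-136172323, plus strand, match 40 bases after the start site: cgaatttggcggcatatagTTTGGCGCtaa
E2f3, chr13:29986056-29986085, minus strand, match 11 bases before the start site: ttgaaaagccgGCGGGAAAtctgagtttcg
E2f7, chr10:110745230-110745259, plus strand, match 198 bases before the start site: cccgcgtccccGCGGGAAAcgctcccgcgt
Rbl1, chr2:157204534-157204563, minus strand, match 18 bases before the start site: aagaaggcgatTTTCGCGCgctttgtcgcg
None of the 4 members with these letters was called in either direction. The windows of E2f1, E2f6, E2f8 and Rbl2 held no match, and that of E2f1 belonged to a start site 466 bases inside the gene as GENCODE M21 draws it.

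Each of the study's hairpins was also compared with the members. Per the study, 3 target sequences were listed for Gm26917 and 1 for the control, and the sources used here do not name the one that the sequenced cells carried. Capitals mark the 7 bases that pair with the seed of the guide strand.
Gm26917 target 1: gcgtttgctctCTCGTCTa
Gm26917 target 2: gctccaatagcGTATATTa
Gm26917 target 3: gcgatttgtctGGTTAATt
Control: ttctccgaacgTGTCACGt
None of these targets matched a member transcript over all 19 bases. The capitals of target 2 stood in the 3′ untranslated region (3′ UTR) of Rbl2 and in 12.7% of all 3′ UTRs, and those of target 3 in E2f2 and E2f4 and in 5.46% of all. The capitals of target 1 and of the control stood in no member 3′ UTR.

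Among the activators, E2f1 was the only one called. E2f1, a factor that can drive both S phase entry and apoptosis, is on mouse chromosome 2 (154559407 to 154569892, minus strand, mm10). Its level was 15.0 and 14.04 CPM in the shNC libraries and 11.8 and 11.5 CPM in the shGm26917 libraries. Both shGm26917 libraries lay below both shNC libraries. The log2 fold change was -0.30 with a standard error of 0.09 (95% interval -0.51 to -0.10, limma adjusted p = 0.0440). The adjusted p was 0.091 without shNC replicate 1, 0.145 without shGm26917 replicate 1, 0.212 without shGm26917 replicate 2 and 0.0517 with upper-quartile scaling, and the log2 fold change kept its sign in each.

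E2f2, the least abundant member, is on chromosome 4 and was measured at 2.57 CPM in both shNC libraries and at 2.15 and 2.05 CPM in the shGm26917 libraries. The shGm26917 libraries were the lower ones, at 0.817 of the shNC mean. These levels correspond to about 32 to 41 reads a library, and the log2 fold change of -0.24 had a standard error of 0.15 (limma adjusted p = 0.291). E2f3, on chromosome 13, codes for an activator needed for normal proliferation in many cell types. E2f3 stood at 23.7 and 26.0 CPM in shNC and at 25.3 and 26.9 CPM in shGm26917. The groups overlapped, and the log2 fold change of 0.07 had a 95% interval of -0.11 to 0.25 (limma adjusted p = 0.55).

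Of the repressor E2Fs, both that were measured among the members rose. E2f6 is on chromosome 12 (16810963 to 16839742, plus strand, mm10). It stood at 14.4 and 15.2 CPM in shNC and at 19.03 and 20.64 CPM in shGm26917. The lower shGm26917 library was above the higher shNC library. The log2 fold change of 0.41 was the largest among the members (standard error 0.08, 95% interval 0.21 to 0.60, limma adjusted p = 0.0141). Without shGm26917 replicate 2 the log2 fold change of E2f6 was 0.35 with an adjusted p of 0.0979, and E2f6 passed the test under every other alternative run.

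E2f4 is on chromosome 8 (105297663 to 105305370, plus strand, mm10). It was measured at 34.8 and 33.7 CPM in shNC and at 40.1 and 40.9 CPM in shGm26917. The 2 libraries of each group lay close together and the groups were apart. The log2 fold change was 0.24 with a standard error of 0.06 (95% interval 0.10 to 0.38, limma adjusted p = 0.0278). The adjusted p was 0.114 without shGm26917 replicate 1 and 0.174 without shGm26917 replicate 2.

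A ratio of 2 genes within a library does not depend on how that library was scaled. The ratio of E2f6 to E2f1 was 0.964 and 1.09 in the shNC libraries and 1.61 and 1.79 in the shGm26917 libraries. For E2f4 to E2f1 the ratio was 2.32 and 2.40 in shNC and 3.40 and 3.55 in shGm26917. In both ratios each shGm26917 library was above each shNC library. These are ratios of CPM and not of molecules, since the genes differ in length.

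The atypical E2Fs were higher in shGm26917 without passing the test. E2f8, on chromosome 7, stood at 15.5 and 14.5 CPM in shNC and at 19.4 and 17.4 CPM in shGm26917, a 1.23-fold difference between means. E2f7, on chromosome 10, stood at 6.91 and 7.51 CPM in shNC and at 9.92 and 8.09 CPM in shGm26917, a 1.25-fold difference. For both genes the shGm26917 libraries were the higher ones, and they differed from each other more than the shNC libraries did. Per the study, the translation efficiency of E2f7 was reduced in Gm26917 knockdown cells, so these values speak of its RNA only.
The log2 fold change was 0.29 for E2f8 (standard error 0.09, limma adjusted p = 0.0577) and 0.30 for E2f7 (standard error 0.13, limma adjusted p = 0.132). E2f8 passed the test without shNC replicate 1, with a log2 fold change of 0.33 and an adjusted p of 0.037. In the annotation 610 exonic bases of E2f8 are shared with Gm2788 on the opposite strand, which fell from a mean of 4.70 to 1.68 CPM (limma adjusted p = 0.00716). The sources used here do not say if the counting used strand, and reads in the shared bases may belong to either gene.

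None of the pocket protein genes was called. Rb1, on chromosome 14, encodes the partner of the activator E2Fs and stood at 50.5 and 46.3 CPM in shNC and at 50.7 and 47.8 CPM in shGm26917. The groups overlapped, and the 95% interval of the log2 fold change of 0.02 ran from -0.13 to 0.18 (limma adjusted p = 0.822). Rb1 shares 488 exonic bases with Rcbtb2 and 408 with Lpar6, both on the opposite strand, and neither of these was called.

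Rbl1, on chromosome 2, which encodes p107 and is itself switched on by E2F during the cycle, stood at 29.4 and 30.8 CPM in shNC and at 34.4 and 32.3 CPM in shGm26917. The shGm26917 libraries were the higher ones, with a log2 fold change of 0.15 (95% interval -0.01 to 0.31, limma adjusted p = 0.161). Rbl2, on chromosome 8, which encodes p130, the pocket protein of resting cells, had the highest CPM of the members, at 85.6 and 73.7 in shNC and 78.3 and 71.2 in shGm26917. Its groups overlapped, and the shNC libraries alone spanned more than the distance between the group means. The log2 fold change of Rbl2 was -0.09 (95% interval -0.28 to 0.11, limma adjusted p = 0.482), and 693 of its exonic bases are shared with Aktip on the opposite strand. The intervals of Rb1 and Rbl2 thus bound their changes and do not show that these transcripts were equal in both groups.

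E2f5, the remaining pocket-binding E2F, was outside the list of members. It stood at 6.21 and 9.14 CPM in shNC and at 7.80 and 9.20 CPM in shGm26917, and the groups overlapped (log2 fold change 0.16, limma adjusted p = 0.561).

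**Figure D2:**
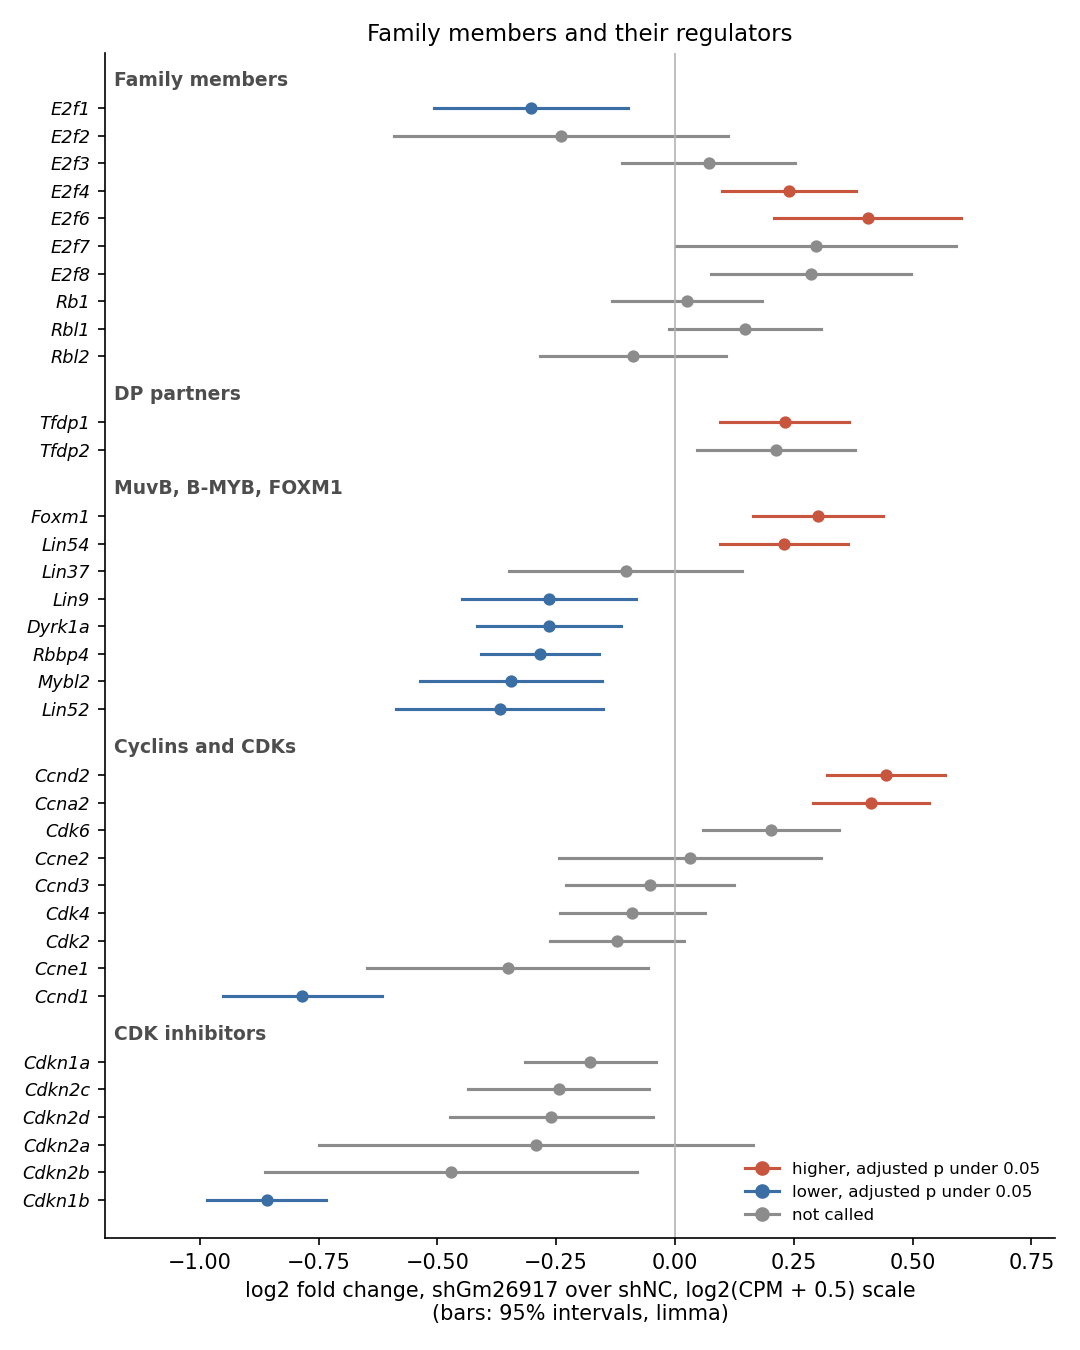
Log2 fold change of shGm26917 over shNC on the log2(CPM + 0.5) scale, with 95% intervals from limma, for the 10 members, the DP partners, the MuvB group with its regulators, the cyclins and CDKs and the CDK inhibitors. Higher calls are red, lower calls blue and uncalled genes grey; E2f1 (-0.30) lies opposite E2f4 (0.24) and E2f6 (0.41), and all 6 CDK inhibitors lie below 0.

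To compare levels between genes, CPM were divided by the length of all exons of a gene in kilobases. In shNC the order by CPM per kb was E2f4 at 13.97, Rbl2 at 10.5, Rb1 at 8.05, Rbl1 at 5.02, E2f1 at 4.60, E2f3 at 4.58, E2f8 at 2.75, E2f6 at 2.62, E2f7 at 0.80 and E2f2 at 0.527. The repressor E2f4 and the pocket proteins thus led, and neighbours in this order did not overlap between libraries except for E2f1 with E2f3 and E2f8 with E2f6. In shGm26917 the first 4 places were held by the same genes, E2f4 at 16.5, Rbl2 at 9.89, Rb1 at 8.18 and Rbl1 at 5.57 CPM per kb. E2f3 at 4.81 then stood above E2f1 at 3.70 without overlap, followed by E2f6 at 3.50, E2f8 at 3.38, E2f7 at 1.0 and E2f2 at 0.430. The only neighbours that overlapped in shGm26917 were E2f6 and E2f8. With the longest transcript as the length, the first 4 and last 2 places were unchanged in both groups, and in shGm26917 E2f6 at 6.57 CPM per kb then stood above E2f3 at 5.12, E2f8 at 4.99 and E2f1 at 4.23.

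**Figure D3:**
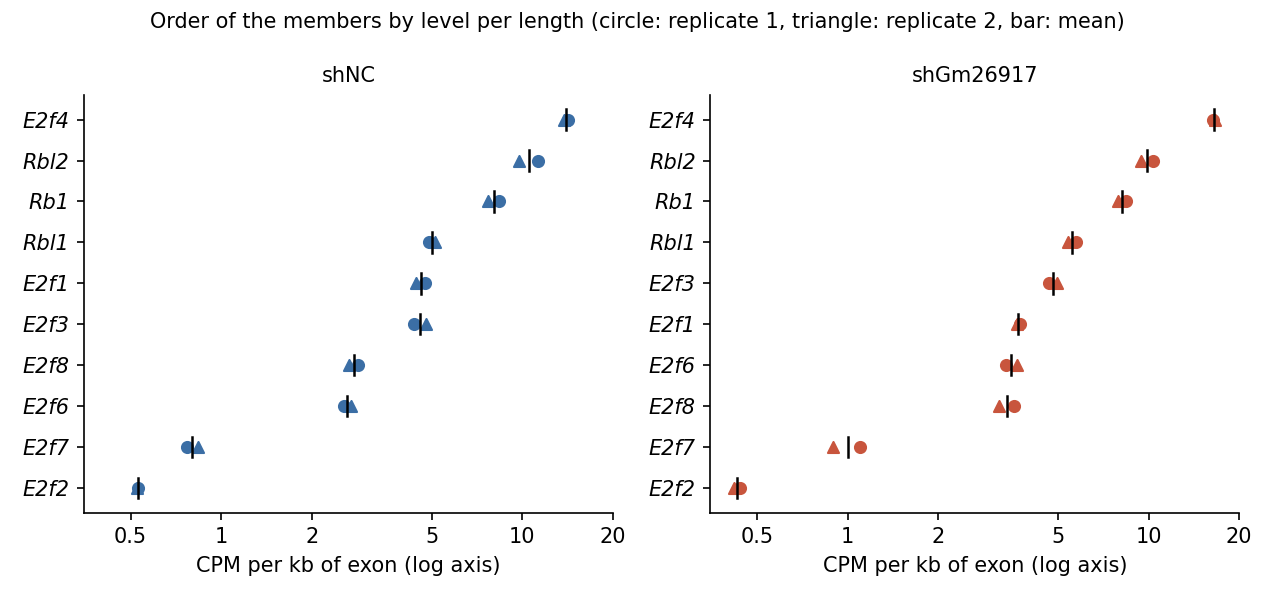
CPM per kb of exon (log axis) of the 10 members in shNC (left) and shGm26917 (right), ordered by group mean, with circles for replicate 1, triangles for replicate 2 and bars for means. E2f1 and E2f3 overlapped in shNC at 4.60 and 4.58, and in shGm26917 E2f3 (4.81) stood above E2f1 (3.70).

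Of the DP proteins that the classical E2Fs need for binding, 1 of 2 was higher, beside 11.6% of all genes. Tfdp1 was measured at 81.9 and 88.2 CPM in shNC and at 99.8 and 99.7 CPM in shGm26917, and it rose by 0.23 on the log2 scale (limma adjusted p = 0.0277). Tfdp2 had a log2 fold change of 0.21 and did not pass the test (limma adjusted p = 0.0692). The call of Tfdp1 was lost without either shGm26917 library, with adjusted p of 0.120 without replicate 1 and 0.128 without replicate 2.

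The MuvB group held 8 measured genes, namely the core proteins with which E2F4 and p130 form the DREAM complex, and Dyrk1a, Mybl2 and Foxm1. Of these 8 genes 5 were lower, 2 were higher and 1 was not called, that is 87.5% called beside 23.1% of all genes. Lower were the core proteins Lin52 (-0.37), Rbbp4 (-0.28) and Lin9 (-0.26), the kinase Dyrk1a (-0.27), which starts DREAM assembly by phosphorylating LIN52, and Mybl2 (-0.35), the B-MYB factor that joins MuvB in S phase. Higher were the DNA-binding core protein Lin54 (0.23) and Foxm1 (0.30), the factor that follows B-MYB in G2. Lin37 had a log2 fold change of -0.10 (limma adjusted p = 0.513). The median log2 fold change of the group was -0.26. Without shGm26917 replicate 1 the calls were 1 lower and 0 higher, and without shGm26917 replicate 2 they were 0 lower and 1 higher. The call of Lin9 was also lost without shNC replicate 2 (adjusted p = 0.0795) and when scaled by median ratios (0.0511) or upper quartiles (0.0608).

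Of 11 partners of E2F6 in its Polycomb complex, L3mbtl2, a histone-binding subunit, was higher (0.40) and Rnf2, the ubiquitin ligase subunit, was lower (-0.21). The other 9 were not called, and the median was 0.02. The co-repressors that pocket proteins recruit, also 11, included Kdm5b (-0.30), a histone demethylase, and Arid4a (-0.38), a pocket-binding adaptor of the SIN3 complex, both lower, and the other 9, the histone deacetylases among them, were not called. In each of these lists 18.2% of the genes were called, which is below the 23.1% of all genes. The call of Rnf2 was lost without either shGm26917 library and that of Kdm5b without shGm26917 replicate 2, with adjusted p of 0.195 and 0.114 for Rnf2 and 0.087 for Kdm5b.

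The cyclins that act on the pocket proteins did not move together. Ccnd1, the D-type cyclin that starts their phosphorylation, stood at 229.1 and 222.1 CPM in shNC and at 139.6 and 122.5 CPM in shGm26917, and it fell by 0.78 on the log2 scale (limma adjusted p = 0.000902). Ccnd2, a second D-type cyclin, stood at 160.7 and 157.0 CPM in shNC and at 218.3 and 214.3 CPM in shGm26917, and it rose by 0.44 (limma adjusted p = 0.00204). Ccna2, the cyclin of S phase and G2, rose by 0.41 (limma adjusted p = 0.00251). The remaining 6 of these 9 genes were not called, among them Cdk2, Cdk4 and Cdk6, so 33.3% were called beside 23.1% of all genes. Cdk6 was close (0.20, limma adjusted p = 0.0512), and 3 genes were called higher with median-ratio scaling, upper-quartile scaling or the filter of 5 CPM. These are RNA levels. Per the study, western blots of Gm26917 knockdown cells showed the proteins CDK4 and cyclin D1 (Ccnd1) higher and cyclins A2 (Ccna2) and B1 (Ccnb1) lower. The RNA of Ccnb1, a gene of the G2 and mitosis list below, rose by 0.37 on the log2 scale (limma adjusted p = 0.00330).

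The CDK inhibitors, which keep the pocket proteins in their binding form, all had negative log2 fold changes, and 1 of the 6 measured passed the test. That is 16.7% called, which is below the 23.1% of all genes. Cdkn1b, which encodes p27, stood at 95.2 and 96.6 CPM in shNC and at 53.3 and 52.0 CPM in shGm26917. It fell by 0.86 on the log2 scale, with a standard error of 0.05 (limma adjusted p = 0.000214). The log2 fold changes of the others were -0.18 for Cdkn1a, -0.25 for Cdkn2c, -0.26 for Cdkn2d, -0.29 for Cdkn2a and -0.47 for Cdkn2b. The median of the 6 was -0.28.

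Among 6 genes that govern the breakdown of E2F proteins and their regulators, 3 were higher and 1 was lower. The shares among all genes were 11.6% higher and 11.5% lower. Higher were Ccnf (0.51), the F-box protein that targets activator E2Fs, Cdc20 (0.43), an activator of the anaphase-promoting complex, and Cks1b (0.25), a cofactor of SKP2. Mdm2, the ubiquitin ligase of p53, which also binds RB1, was lower (-0.40). The call of Cks1b was lost without shGm26917 replicate 2 (limma adjusted p = 0.198).

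Genes downstream of the family split by phase of the cell cycle. Of 54 textbook targets of activator E2Fs in G1 and S phase, 20 were lower (37.0%) and 2 were higher (3.70%), beside the 11.5% and 11.6% of all genes, and 42 had a negative log2 fold change. The median was -0.23. The 5 lower calls with the smallest p were the replicative helicase genes Mcm4 (-0.64), Mcm6 (-0.59) and Mcm3 (-0.50), together with the maintenance methylation cofactor Uhrf1 (-0.52) and the polymerase clamp Pcna (-0.46). Mcm4 stood at 72.9 and 72.3 CPM in shNC and at 47.9 and 45.0 CPM in shGm26917, and Pcna at 92.5 and 91.6 CPM in shNC and at 65.4 and 67.8 CPM in shGm26917. Both genes were apart by far more than the libraries of a group differed. Higher were Cdca7 (0.30), a chromatin factor, and the histone chaperone Asf1b (0.26). The call of Cdca7 was lost without shGm26917 replicate 2, and that of Asf1b without shNC replicate 2 or either shGm26917 library.

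Of 35 genes of G2 and mitosis that DREAM holds silent in resting cells, 21 were higher (60.0%) and 1 was lower (2.86%). Of all genes, 11.6% were called higher and 11.5% lower. A positive log2 fold change was found for 33 of the 35 genes. The median was 0.31. The higher calls with the smallest p were the spindle protein Aspm (0.74), the kinesin Kif23 (0.61), the cyclin Ccnb2 (0.55), the mitotic kinase Plk1 (0.54) and the spindle factor Tpx2 (0.43). Aspm stood at 77.3 and 72.2 CPM in shNC and at 127.7 and 122.4 CPM in shGm26917, with both shGm26917 libraries above both shNC libraries. Top2a, the topoisomerase that untangles chromosomes, was the lower one (-0.29), a call that was lost without shGm26917 replicate 2 (adjusted p = 0.143). With each library left out in turn, the count of lower G1 and S targets ran from 14 to 24 and that of higher G2 and mitosis genes from 14 to 23. In bulk RNA, a change in the share of cells in a phase and a change in RNA per cell cannot be told apart. Per the study, flow cytometry of Gm26917 knockdown cells showed more cells in S phase, and its bearing on these RNA levels was not tested.

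**Figure D4:**
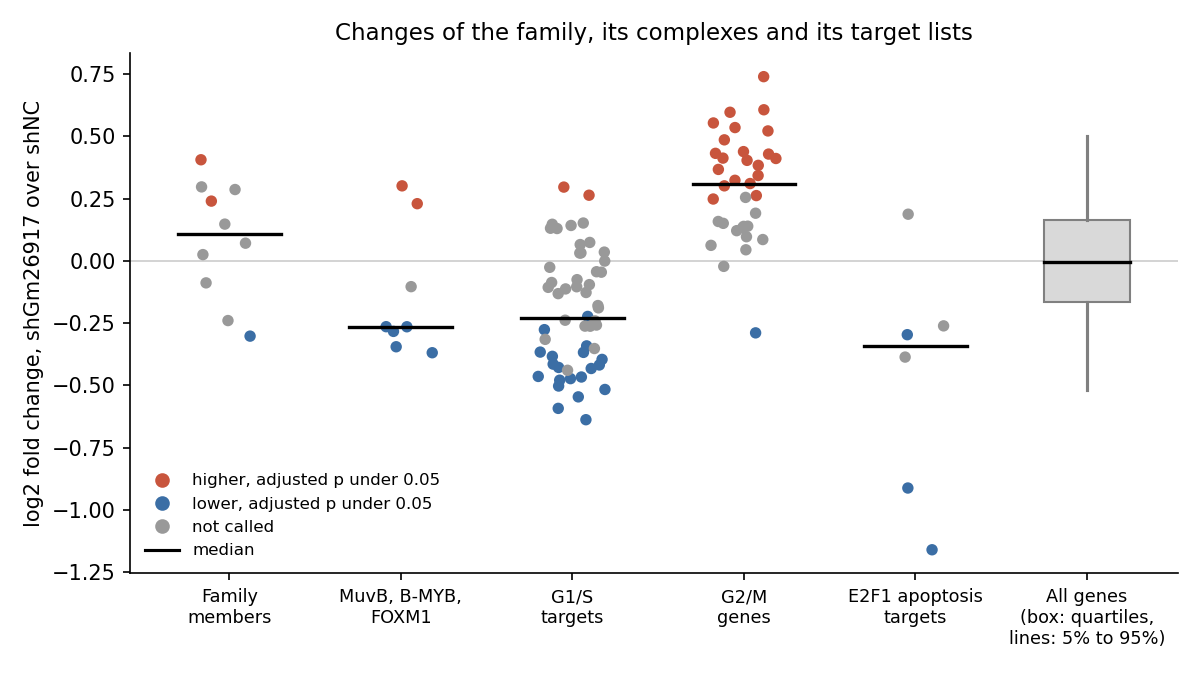
Log2 fold change of shGm26917 over shNC for each gene of the family, of the MuvB group with B-MYB and FOXM1, of the G1/S targets, of the G2/M genes and of the apoptosis targets, with black bars for medians and a box for the quartiles of all genes. The medians were 0.11, -0.26, -0.23, 0.31 and -0.34, beside -0.01 for all genes.

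Of 6 apoptosis genes known as targets of E2F1, 3 were lower and none was higher, beside 11.5% and 11.6% of all genes. Lower were Bbc3 (-1.16) and Bcl2l11 (-0.91), which encode the pro-death proteins PUMA and BIM, and Pmaip1 (-0.30), which encodes NOXA. Of the 6, only Apaf1 had a positive log2 fold change (0.19), and it did not pass the test (limma adjusted p = 0.0728). Bbc3 stood at 37.7 and 37.5 CPM in shNC and at 17.3 and 15.8 CPM in shGm26917 (limma adjusted p = 0.000218). Its shGm26917 libraries were both under the lower shNC library by a wide margin. These are RNA levels. Per the study, apoptosis was higher in Gm26917 knockdown cells by flow cytometry. Its blots there showed more cleaved PARP, cleaved caspase-3 and BAX protein and less BCL-2 protein. The median of the 6 was -0.34, and the call of Pmaip1 was lost without shGm26917 replicate 2 (adjusted p = 0.116).

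Mir17hg, the host transcript of a microRNA cluster that E2Fs activate and that is known to act back on E2f1, rose. It stood at 9.98 and 13.1 CPM in shNC and at 26.5 and 31.6 CPM in shGm26917, a log2 fold change of 1.30 with a standard error of 0.14 (limma adjusted p = 0.00160). Mcm7, whose intron hosts a related cluster, fell by 0.40 on the log2 scale (limma adjusted p = 0.0197). The mature microRNAs were not measured in these libraries. A pair from the Mir17hg cluster with one seed (bases 2 to 8, in capitals) is shown, from RefSeq (GRCm38.p6), because the same letters can be looked for in the members.
miR-17-5p, chr14:115043684-115043706, plus strand: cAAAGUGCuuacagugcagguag
miR-20a-5p, chr14:115044183-115044205, plus strand: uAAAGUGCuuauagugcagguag
The complement GCACTTT was found in the longest 3′ UTR (GENCODE M21) of E2f1 and Rbl2 at 2 positions each, and of E2f2, E2f3, Rb1 and Rbl1 at 1 position each. The 3′ UTRs of E2f4, E2f6, E2f7 and E2f8 held none. Among 3′ UTRs of like length, 11.8% held the letters for the length of E2f1, and 5.48% to 27.2% did for the lengths of the other members. The matches of E2f1 and Rbl2 are printed with the complement in capitals, and the position counts from the first base of the 3′ UTR.
E2f1, position 470: ggtgggctctaactGCACTTTtg
E2f1, position 985: ccaccctccagtctGCACTTTga
Rbl2, position 705: ctgtgtaattggtgGCACTTTat
Rbl2, position 766: gtatatttatgatgGCACTTTct
Among the 6 members with these letters, E2f1 was lower and the other 5 were not called, and among the 4 members without them E2f4 and E2f6 were higher and the other 2 were not called. Whether the letters bear on these levels was not tested.

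The targeted RNA and the cells were checked in the same libraries. Gm26917 stood at 155.1 and 156.6 CPM in shNC and at 136.5 and 104.2 CPM in shGm26917, a log2 fold change of -0.39 that did not pass the test (limma adjusted p = 0.0696). The log2 fold change was -0.58 without shGm26917 replicate 1 (adjusted p = 0.000278) and -0.19 without shGm26917 replicate 2 (adjusted p = 0.207), so the size of the knockdown rested on which of these libraries was used. Per the study, the knockdown of Gm26917 was assessed by RT-qPCR, a measure that was not used here. Gm42418, also on chromosome 17, fell by 2.16 on the log2 scale (limma adjusted p = 5.57e-05). Of 16 germ cell markers 6 were measured, with 0 higher and 2 lower and a summed level of 1354 to 1417 CPM in shNC and 1282 to 1326 CPM in shGm26917. Kit alone carried most of this germ cell sum, with levels from 1187 to 1279 CPM over the libraries. The next highest marker, Ifitm3, reached at most 99.6 CPM. The sum therefore mainly follows Kit and does not show how germline the cells were. The defining markers Ddx4 and Dazl were not among the 12701 genes listed, each of which had 1.003 CPM or more in its second-highest library. Of other cell types, all 3 measured granulosa cell markers of 8 were lower (summed level 74.8 to 80.4 against 39.9 to 40.7 CPM), and the summed level of 4 measured mast cell markers of 10 was 1010 to 1054 CPM in shNC and 1156 to 1230 CPM in shGm26917. Of these 4, Cpa3 was higher (0.59) and Gata2 (-0.33) and Ms4a2 (-2.06) were lower. Of 5 leukocyte markers with a summed level of 443.6 to 473.7 against 458.4 to 467.8 CPM, Fcgr1 was higher (1.14) and Cd68 (-0.69) and Cd74 (-0.62) were lower. Ptprc (269.0 to 285.5 CPM over the libraries) and Adgre1 (128.7 to 152.0 CPM) carried most of this leukocyte sum, and neither was called. Summed levels were 1246 to 1288 against 1067 to 1137 CPM for 9 fibroblast markers, with 1 higher and 2 lower, and 9.62 to 10.8 against 7.83 to 8.05 CPM for 3 endothelial markers, with 0 higher and 1 lower. The part of these cells in the changes of the family was not tested.

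**Figure D5:**
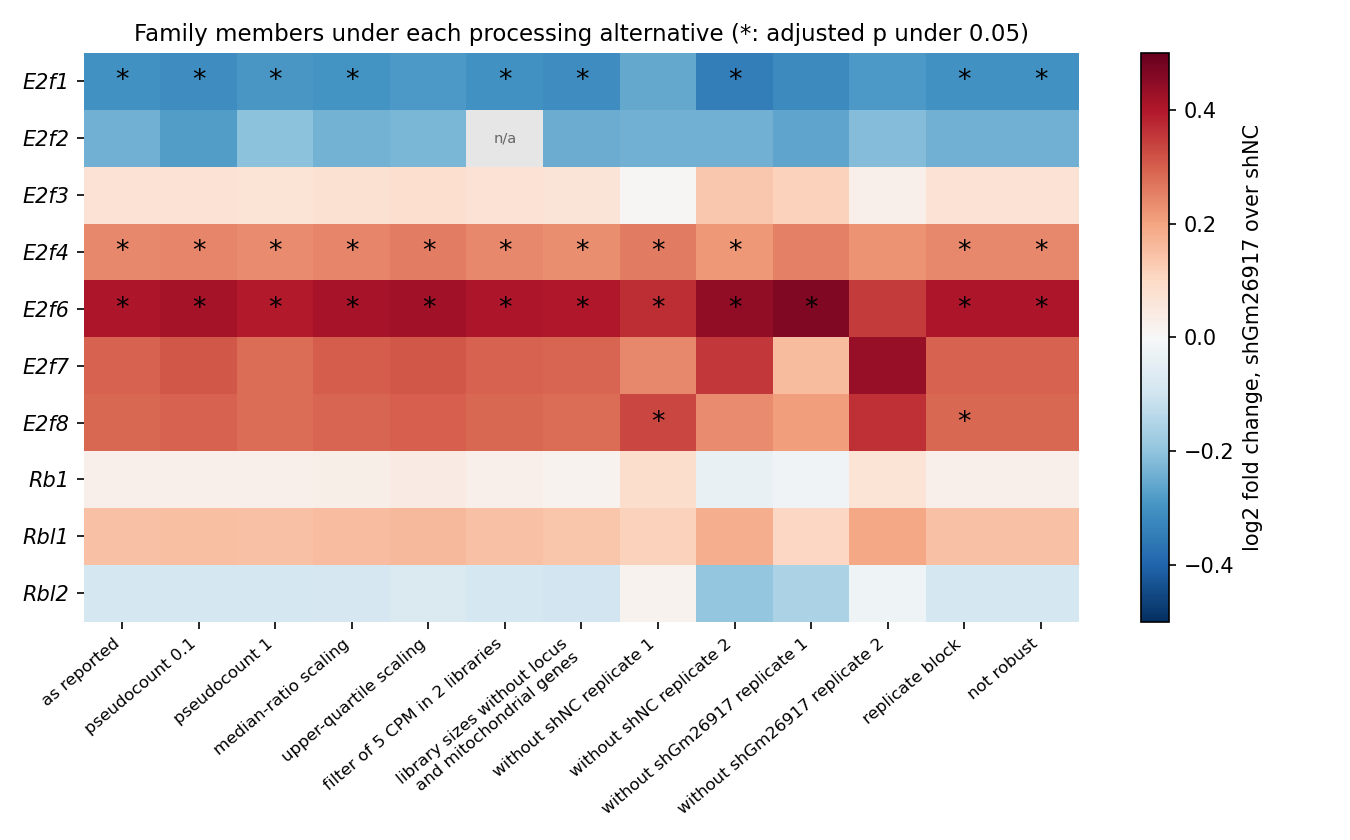
Log2 fold change of the 10 members (rows) under the reported fit and each processing alternative (columns), in colour from -0.50 (blue) to 0.50 (red), with a star where the adjusted p was under 0.05 and grey where a gene did not pass a filter. E2f4 and E2f6 were positive and E2f1 and E2f2 negative in every column that holds a value, while the stars of E2f1, E2f4 and E2f6 were lost in some columns that leave out a library and that of E2f1 also with upper-quartile scaling.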

How the data were processed

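RNA sequencing of total RNA gave 4 libraries, 2 of shNC and 2 of shGm26917 FGSCs, grouped by the genotype label. Reads had been handled with RSEM 1.2.28, Bowtie2 2.1.0 and edgeR on mm10, per the submitters' processing notes. The authors deposited 1 table of CPM per gene and library, with every gene at 1.003 CPM or more in its second-highest library. The deposited columns of the authors' log2 fold change, linear fold change, p-value and adjusted p-value were not used. Depth was about 12900000 to 17900000 reads, judged from steps between low values, of which 33.6% to 67.8% were whole within 0.02 of a read, so no counts were recovered.

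shGm26917 was compared with shNC on log2(CPM + 0.5) by limma 3.58.1 (R 4.3.3; trended, robust, two-sided), adjusted over 12701 genes by the Benjamini-Hochberg method. The fit was also run on simulated data, where the planted changes were larger than those of the called members, so this check does not cover their calls. Fold changes on this scale understate those of low genes. The members and lists were chosen with earlier results of these data known. All members, Gm26917 and Gm42418 were named, in lists of up to 12 genes those called (otherwise the one that moved most), and in longer lists the 5 called genes with the smallest p in each direction. E2f5, Gm2788, Ccnb1, called markers of other cell types and uncalled genes were named after their values were seen. A gene of the apoptosis list is not reported here and was left out of its counts. Lists use chromosomal copies only, and reads of Atad2 may be split with a patch copy. Ccna2, Cdc20, Foxm1, Ccne1, Ccne2 and Mcm7 stand in 2 lists each. Alternatives were pseudocounts of 0.1 and 1, 2 other scalings, a filter of 5 CPM in 2 libraries, library sizes without the locus and mitochondrial genes, each library left out, a replicate block, a fit that was not robust and another gene length.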

Additional observations from a re-analysis of the deposited data

How the results depend on the processing

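E2f1, E2f2, E2f3, E2f4, E2f6, E2f7, E2f8 and Rbl1 kept their direction under every alternative that gave a value, and E2f2 was not tested with the filter of 5 CPM. Rb1 (-0.04 to 0.09) and Rbl2 (-0.20 to 0.02), not called under any alternative, changed sign between left-out libraries. With upper-quartile scaling E2f1 was at -0.29 (adjusted p = 0.0517), so that 0 members were called lower. With each library left out in turn, which leaves 1 library in a group and assumes that it varies like the rest, E2f1 ran from -0.35 to -0.26, E2f4 from 0.22 to 0.26, E2f6 from 0.35 to 0.46 and E2f8 from 0.21 to 0.36. Members called higher ran from 0 to 3 and lower from 0 to 1, and genes called higher from 752 to 1793 and lower from 832 to 1735, beside 1469 and 1461 in the reported fit. With the same libraries left out, MuvB genes called lower ran from 0 to 5 and higher from 0 to 2, DP partners higher from 0 to 2, Polycomb partners lower from 0 to 3, cyclins and CDKs lower from 1 to 3, CDK inhibitors lower from 1 to 2 and co-repressors lower from 1 to 4. The replicate numbers have no stated meaning. The difference between replicates correlated between the groups at r = 0.112 over 10034 genes, which are not independent replicates. With the replicate block E2f8 was called at 0.29 (adjusted p = 0.0228) and Gm26917 at -0.39 (adjusted p = 0.0239), and 1979 genes were called higher and 2003 lower, among them 3 CDK inhibitors lower and 3 Polycomb partners higher. With the longest transcript as length, E2f6 took place 6, E2f3 place 7 and E2f8 place 8 in shNC, and E2f6 took place 5, E2f3 place 6, E2f8 place 7 and E2f1 place 8 in shGm26917. The cause of these changes was not tested. Of the members, E2f2 rested on the fewest reads.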
